A study of Mus musculus with 20 samples.

Results

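The genes described here are 10 RNA polymerase I and nucleolar genes, Polr1a, Polr1b, Polr1c, Polr1e, Ubtf, Rrn3, Nolc1, Ncl, Tcof1 and Lyar, which were taken by name from a table of 15757 mouse genes. All 10 were present, each in a single entry. The set was put together with results of these data known, and Nolc1 and Lyar had been selected on their day 3 difference between the arms. Values at day 3 between the arms are therefore given as a description of all 10 genes, with no test. Embryonic fibroblasts of OG2 mice at passage 2 were infected with retroviruses, per the labels' protocols, and underwent reprogramming with OSKM in iCD1 medium. OSKM stands for the factors Oct4, Sox2, Klf4 and Myc, which convert fibroblasts towards pluripotent stem cells. One arm carried shDdx10, an shRNA against Ddx10, and the other carried shLuci, the control shRNA named for luciferase. Messenger RNA was sequenced at days 0, 1, 3, 5 and 7, which gives 10 groups of 2 libraries. Both arms are labelled OSKM, so the comparisons between them are made along the same reprogramming course, with day 0 as its start. At day 0, 8 of 8 pluripotent markers looked up were below 10 normalized reads in the libraries of both arms. The labels name a single shDdx10 arm and no rescue, so the loss of Ddx10 and any other effect of the shRNA cannot be told apart. The series describes its replicates as biological without naming separate cultures, so a p-value here covers only the spread between these libraries, which may be technical.

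RNA polymerase I transcribes the repeated ribosomal DNA into the long precursor of the large ribosomal RNAs, and it does so in the nucleolus. Ubtf, the upstream binding factor, coats active ribosomal DNA, and Rrn3 carries the polymerase to the promoter. The precursor is then cut, modified and packed with ribosomal proteins in the same compartment, with the help of abundant nucleolar proteins such as nucleolin. Ddx10 is a DEAD-box RNA helicase, and its yeast counterpart Dbp4 acts in the maturation of the small ribosomal subunit. Growing and dividing cells need much ribosomal RNA, and Myc, a factor in the OSKM mixture, is known to raise genes of this machinery.

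The promoters of 4 of the genes are shown because 3 of them (Ncl, Nolc1 and Polr1b) shared an early rise and the remaining one, Rrn3, did not pass the test on that day. The stretches lie just before the annotated start and hold no annotated exon; they are written 5′ to 3′ on the gene's strand from RefSeq on GRCm38.p6. RefSeq promoter windows matched 9 of the 10 genes, in 14 windows, since Ubtf has several starts. Capitals mark the GC box (GGGCGG), the E-box (CACGTG, which Myc family proteins bind) and the ETS motif (CCGGAAG), each searched on both strands. The Ncl stretch covers chr1:86359456-86359573 on the minus strand, and the Nolc1 stretch covers chr19:46075597-46075846 on the plus strand. The Polr1b stretch covers chr2:129100746-129100994 and the Rrn3 stretch covers chr16:13780449-13780698, both on the plus strand.
Ncl: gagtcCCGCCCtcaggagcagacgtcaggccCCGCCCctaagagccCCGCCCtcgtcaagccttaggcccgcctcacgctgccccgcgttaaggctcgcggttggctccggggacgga
Nolc1: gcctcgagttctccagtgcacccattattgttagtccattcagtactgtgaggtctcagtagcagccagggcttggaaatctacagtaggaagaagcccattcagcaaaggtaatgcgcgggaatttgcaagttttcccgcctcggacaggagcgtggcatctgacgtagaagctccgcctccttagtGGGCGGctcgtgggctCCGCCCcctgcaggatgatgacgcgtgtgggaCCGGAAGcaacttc
Polr1b: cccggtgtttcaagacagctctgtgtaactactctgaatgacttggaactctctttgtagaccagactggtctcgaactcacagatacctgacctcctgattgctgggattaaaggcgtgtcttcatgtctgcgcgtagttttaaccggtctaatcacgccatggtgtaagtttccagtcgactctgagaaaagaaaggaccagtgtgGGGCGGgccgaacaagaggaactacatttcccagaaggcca
Rrn3: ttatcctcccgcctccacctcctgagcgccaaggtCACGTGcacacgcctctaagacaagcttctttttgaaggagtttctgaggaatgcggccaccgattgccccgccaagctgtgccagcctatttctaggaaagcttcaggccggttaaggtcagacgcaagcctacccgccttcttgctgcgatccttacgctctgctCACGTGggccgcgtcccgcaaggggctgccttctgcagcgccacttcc

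Ncl held 3 GC boxes, Nolc1 held 2 GC boxes and 1 ETS motif, Polr1b held 1 GC box, and Rrn3 held 2 E-boxes, at 215 and 48 bases before the start. Lyar, which rose by day 1 too, held none of those searched, while Polr1c, Polr1e and Ubtf, which were not called on that day, held GC boxes, and Polr1c held an ETS motif. Rrn3 was the 1 gene with an E-box among the windows of the 9 genes. In the 250 bases before the start, a GC box stood in 32.7% of all 32851 windows, an ETS motif in 6.91% and an E-box in 6.02%. The other motifs searched were CCAAT, found in 33.8% of all windows and in windows of Polr1a and Ubtf, and the palindromic NRF1 motif, found in 0.782% of all windows and in no window of these genes. These motifs do not overlap one another in the stretches shown, a match is no more than these letters, and no match says only that the letters are not in the window.

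Ddx10 itself, the target of the shRNA, was lower in shDdx10 cells on each day. It had 313 and 319 normalized reads in shDdx10 cells against 523 and 499.9 in shLuci cells at day 0, and 530.0 and 529 in shDdx10 cells against 867 and 763 in shLuci cells at day 7. The log2 fold change, always of log2(value + 1), was -0.69 at day 0, -1.58 at day 1, -1.31 at day 3, -0.79 at day 5 and -0.62 at day 7 (SE 0.12 each), and -0.92 over the mean of days 0, 1, 5 and 7 (limma adjusted p = 6.86e-07). On single days the call was lost at day 0 without the shDdx10 replicate 1 (limma adjusted p = 0.0562), at day 7 without the shLuci replicate 1 (0.0777) or the shDdx10 replicate 2 (0.0502), and with the compared libraries alone at day 0 (0.186) and day 1 (0.523). The column sums lay between 15.67 M and 21.26 M normalized reads, and a depth of 12.0 M to 23.7 M reads was estimated from the low values of each column. The shLuci libraries of day 1 differed most from each other, with a median absolute log2 difference of 0.252 across genes against 0.118 to 0.163 in the other groups. The cells also changed in type. The summed level of 8 of 8 fibroblast markers was 176573 to 194133 in shDdx10 libraries and 160765 to 169443 in shLuci libraries at day 7, against 540698 to 581807 in shDdx10 libraries and 629538 to 681311 in shLuci libraries at day 0. Part of this lay before day 1, when the fibroblast markers summed to 342868 to 359718 in shDdx10 libraries and 328199 to 339798 in shLuci libraries. Col3a1 went the other way, from a mean of 22010.6 at day 0 to 38100.5 at day 1 in shDdx10 cells. In shLuci cells its mean went from 25016.7 to 34041.9. The sum of 10 of 10 macrophage and blood markers was 292 to 323 in shDdx10 libraries and 254 to 279.7 in shLuci libraries at day 1, against 3806 to 3917 in shDdx10 libraries and 2653 to 3934 in shLuci libraries at day 0. The sum of 6 of 6 epithelial markers was 624 to 652 in shDdx10 libraries and 686 to 716 in shLuci libraries at day 1, against 183 to 185 in shDdx10 libraries and 170.0 to 199 in shLuci libraries at day 0. The part of these shifts in the changes from day 0 to day 1 was not tested. In bulk RNA, fewer cells of a type and less RNA per cell cannot be told apart.

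Within the 10 genes the levels spanned more than an order of magnitude. Per kilobase of the longest coding transcript, Ncl stood highest in shLuci cells of day 1, at 3260 to 3600 normalized reads per kilobase over the libraries. Lyar followed with 642 to 873, Nolc1 with 659 to 719, Rrn3 with 566 to 651 and Polr1c with 526 to 686, where Lyar overlapped Nolc1, Nolc1 lay above Rrn3, and Rrn3 overlapped Polr1c. Ubtf, at 483 to 530 per kilobase, overlapped Polr1c and lay above Tcof1 at 411 to 469. Polr1b at 220 to 251, Polr1a at 231 to 238 and Polr1e at 118 to 207 per kilobase made up the low end, where Polr1a and Polr1b overlapped. The Ncl transcript used is long, at 8.2 kb, which lowers its value per kilobase. Exons of Ncl also hold small RNA genes on the same strand, Snora75 with 133 shared bases among them, and Polr1a shares 185 exon bases with an antisense gene, Gm26628. Whether the counting used strand is not given in the sources used here. A stretch of 193 bases of Polr1b is 97.9% identical to a transcript of Plekha5.

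**Figure D1:**
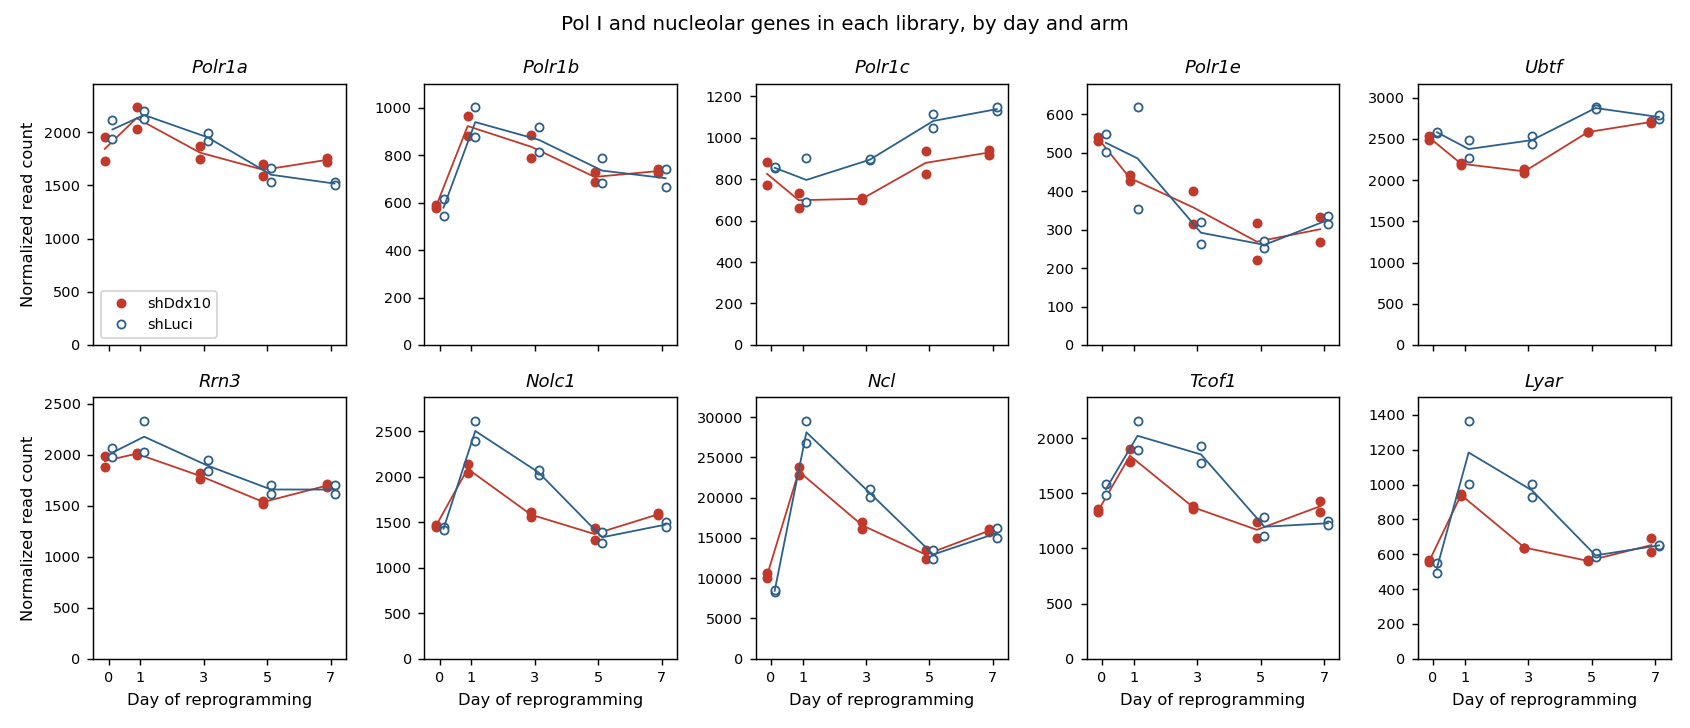
Normalized read count (y axis, from 0) of each of the 10 genes in each of the 20 libraries against day of reprogramming (x axis, days 0, 1, 3, 5 and 7); filled points are shDdx10 libraries, open points are shLuci libraries and lines join the means of 2 libraries. The means of Ncl, Nolc1, Lyar, Tcof1, Polr1b, Polr1a and Rrn3 are highest at day 1 in both arms, where the rises of Polr1a and Rrn3 are small. Polr1e is lower after day 1, and Polr1c and Ubtf end higher than they were at day 1.

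The first question that the control arm answers is how this machinery moves as fibroblasts enter reprogramming. By day 1, nucleolar proteins and the core subunit Polr1b rose in shLuci cells, while the initiation factors and the other polymerase subunits did not pass the test. Of the 10 genes, 5 were higher and 0 lower at day 1 than at day 0 by limma with an adjusted p under 0.05. Over all genes, 28.3% were called higher and 26.7% lower, so that 5 of 10 stands beside a background in which most of the transcriptome moved. The median log2 fold change of the 10 genes was 0.25, against 0.0065 over all genes.

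Among the polymerase subunits, Polr1b, which with Polr1a forms the catalytic core (ENSMUSG00000027395, chromosome 2, 129100995 to 129126594, mm10), had 878 and 1002 normalized reads in shLuci cells of day 1 against 616 and 542 at day 0. The groups did not overlap, and the log2 fold change was 0.70 (SE 0.11, limma adjusted p = 4.27e-05). Polr1a, the largest subunit (ENSMUSG00000049553, chromosome 6, 71909053 to 71984935), had 2194 and 2126 normalized reads at day 1 against 2116 and 1932 at day 0 and was not called. Polr1c, a subunit shared with RNA polymerase III (ENSMUSG00000067148, chromosome 17, 46243920 to 46248054), had 901 and 691 at day 1 against 853 and 856 at day 0. Polr1e, a subunit particular to polymerase I (ENSMUSG00000028318, chromosome 4, 45018583 to 45036565), had 352 and 618 at day 1 against 549 and 503 at day 0. The libraries of day 1 lay on both sides of day 0 for Polr1c and Polr1e, and neither was called.

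Neither of the initiation factors passed the test. Rrn3 (ENSMUSG00000022682, chromosome 16, 13780708 to 13814839) had 2026.5 and 2331 normalized reads in shLuci cells of day 1 against 1976 and 2068 at day 0. Ubtf (ENSMUSG00000020923, chromosome 11, 102304560 to 102319742) had 2265 and 2489 at day 1 against 2577 and 2585 at day 0, both libraries lower at day 1, with a limma adjusted p of 0.0914. Without the shLuci day 1 replicate 2, Ubtf was called lower at day 1, with a log2 fold change of -0.19 and a limma adjusted p of 0.0159.

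All 4 nucleolar proteins rose. Ncl encodes nucleolin, an abundant RNA-binding protein of the nucleolus (ENSMUSG00000026234, chromosome 1, 86344719 to 86359400), and had 29509 and 26752 normalized reads in shLuci cells of day 1 against 8299 and 8574 at day 0. That is a log2 fold change of 1.74 (SE 0.069, limma adjusted p = 2.45e-11), or 3.33-fold. Lyar, a nucleolar zinc finger protein (ENSMUSG00000067367, chromosome 5, 38220470 to 38234306), had 1364 and 1004 at day 1 against 491 and 549 at day 0. Its log2 fold change was 1.17 (SE 0.11, limma adjusted p = 4.04e-07), although its libraries of day 1 lay far apart. Nolc1, a chaperone of small nucleolar ribonucleoproteins (ENSMUSG00000015176, chromosome 19, 46075863 to 46085530), had 2612 and 2397 at day 1 against 1449 and 1410.1 at day 0. The log2 fold change of Nolc1 was 0.81 (SE 0.07, limma adjusted p = 1.32e-07). Tcof1, whose protein treacle links ribosomal DNA transcription to processing (ENSMUSG00000024613, chromosome 18, 60813755 to 60848971), had 2154.5 and 1889 at day 1 against 1587 and 1486 at day 0. The rise of Tcof1 was smaller, at a log2 fold change of 0.39 (SE 0.091, limma adjusted p = 0.00168). All of these libraries of day 1 lay above those of day 0, and the share of all genes that did so was not counted.

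After day 1 most of the genes came down again. From day 1 to day 7 in shLuci cells, 7 of the 10 genes fell and 2 rose, against 28.2% of all genes lower and 30.7% higher. The median log2 fold change was -0.52 for the 10 genes and 0.044 for all genes. Ncl had 16262.5 and 14943 normalized reads at day 7, a log2 fold change of -0.85 from day 1 (SE 0.069, limma adjusted p = 3.83e-08), and Lyar had 647 and 655 reads, a change of -0.85 as well (SE 0.11, limma adjusted p = 1.04e-05). Nolc1 had 1502 and 1448 reads at day 7 and a change of -0.76, and Tcof1 had 1247 and 1211 reads and a change of -0.71. Polr1a fell with them, by 0.51 on the log2 scale, to 1530.1 and 1502 reads, and Polr1b and Rrn3 fell by 0.42 and 0.39. The genes that went the other way were Polr1c, with 1129 and 1146 reads at day 7 and a log2 fold change of 0.53 over day 1 (SE 0.11, limma adjusted p = 0.000624), and Ubtf, with 2746 and 2785 reads and a change of 0.22 (SE 0.058, limma adjusted p = 0.00406). Without the shLuci day 1 replicate 2 the change of Polr1c was 0.34 (limma adjusted p = 0.0105). Ubtf lost its call when these 2 groups were fitted alone (limma adjusted p = 0.114). Under quantile scaling, which gives all libraries the same distribution, the fall of Ncl was -0.35 and the rise of Ubtf was 0.39, and both kept their calls. Polr1e fell by 0.52 without passing the test (limma adjusted p = 0.0543), and without the shLuci day 1 replicate 1 its change was -0.93 (limma adjusted p = 0.00116); under quantile scaling it was called as well.

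By day 7 the genes stood on both sides of their starting level. In shLuci cells 4 of 10 were higher than at day 0, with a background of 38.6%, and 4 were lower, with a background of 33.7%, which is close to the shares over all genes. The 4 higher genes were Ncl, Polr1c, Lyar and Polr1b. Ncl kept a log2 fold change of 0.89 over day 0 (SE 0.069, limma adjusted p = 1.02e-08), and Polr1c reached 0.41 (SE 0.11, limma adjusted p = 0.00305). The 4 lower genes were Polr1e, Polr1a, Tcof1 and Rrn3, and Polr1a had a log2 fold change of -0.42 (SE 0.079, limma adjusted p = 0.000206). Polr1e, with 316 and 334 reads at day 7 against 549 and 503 at day 0, had a log2 fold change of -0.69 (SE 0.22, limma adjusted p = 0.0109). The count of called genes was 5 without the shLuci day 7 replicate 1, where Polr1b (limma adjusted p = 0.181), Polr1e (0.0544) and Lyar (0.0554) lost their calls. Lyar also lost its call without the shLuci day 0 replicate 1 (limma adjusted p = 0.133) or the shLuci day 7 replicate 2 (0.0678), Polr1e without the shLuci day 0 replicate 1 (0.0609), and Polr1b without the shLuci day 0 replicate 2 (0.199) or with these groups alone (0.0524). Quantile scaling, which moved the median log2 fold change of all genes in this comparison by -0.17, gave 1.56 for Ncl and -0.27 for Polr1a, and the call of Rrn3 was lost (-0.14, limma adjusted p = 0.106).

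The days between showed the turn. At day 3, 5 of the 10 genes were higher than at day 0 in shLuci cells and 1 was lower, with 34.9% and 31.3% of all genes. The same 5 genes as at day 1 were called higher, Ncl, Lyar, Nolc1, Polr1b and Tcof1, and Polr1e was called lower. Nolc1 and Lyar had been picked on a day 3 difference between the arms that uses these shLuci libraries, so their calls here are a description. Polr1e had 321 and 263 reads at day 3 in shLuci cells, and its log2 fold change over day 0 was -0.85 (SE 0.22, limma adjusted p = 0.00321). The call of Tcof1 at day 3, a log2 fold change of 0.27, was lost without the shLuci day 0 replicate 2 (limma adjusted p = 0.102) and without the shLuci day 3 replicate 2 (0.12). At day 5, 4 of 10 were higher, with 37.7% of all genes, and 4 were lower, with 32.5%. Lyar and Nolc1 were no longer called at day 5, and Tcof1 was lower than at day 0, with 1285 and 1109 reads and a log2 fold change of -0.36 (SE 0.091, limma adjusted p = 0.0021).

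**Figure D2:**
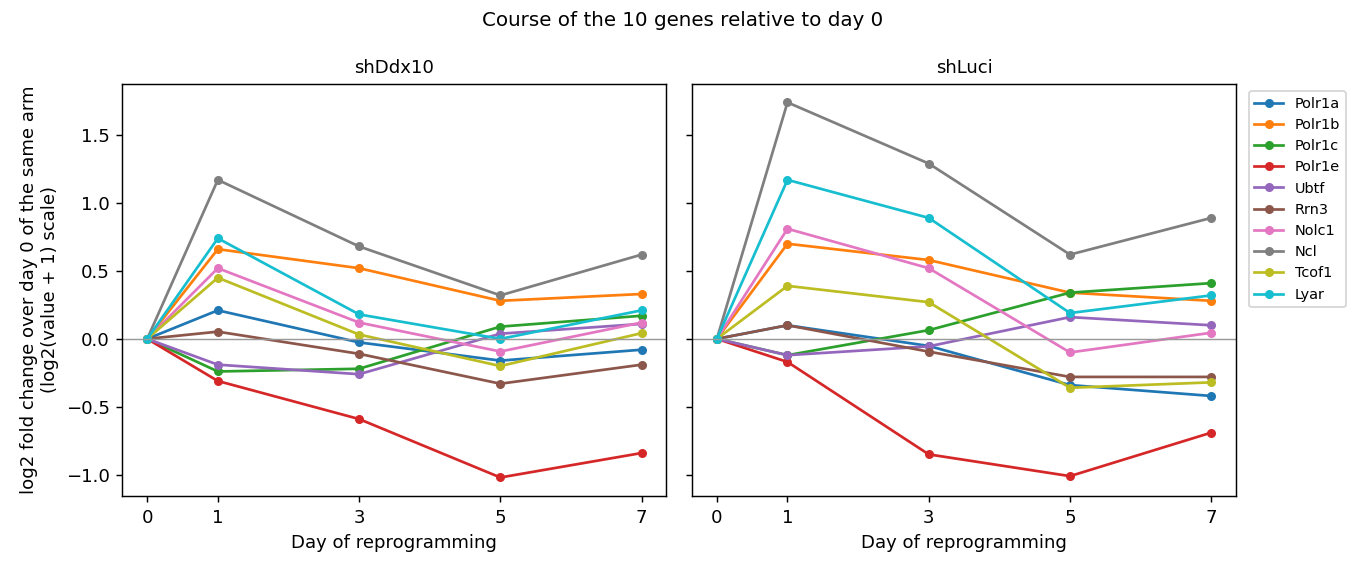
Fitted log2 fold change of each of the 10 genes over day 0 of the same arm (y axis, log2(value + 1) scale) against day of reprogramming (x axis), with shDdx10 cells on the left and shLuci cells on the right; each line is 1 gene, and standard errors lie between 0.058 and 0.22. Ncl reaches 1.17 in shDdx10 cells and 1.74 in shLuci cells at day 1, and Polr1e reaches about -1.02 in shDdx10 cells and -1.01 in shLuci cells at day 5.

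Knockdown cells followed a course of the same outline, with its high point at day 1. In shDdx10 cells, 6 of the 10 genes were higher at day 1 than at day 0 and 1 was lower, against 25.5% and 24.6% of all genes. Ncl had 22781 and 23758 normalized reads at day 1 against 10656 and 10045 at day 0, a log2 fold change of 1.17 (SE 0.069, limma adjusted p = 2.4e-09). Lyar had 948 and 932 at day 1 against 556 and 568 at day 0, a change of 0.74 (SE 0.11, limma adjusted p = 5.94e-05). Nolc1 had 2138 and 2037 at day 1 against 1447 and 1473 at day 0, a change of 0.52 (SE 0.07, limma adjusted p = 1.94e-05). Polr1b and Tcof1 rose by 0.66 and 0.45 on the log2 scale in shDdx10 cells. The remaining calls depended on single libraries. Polr1a, at 0.21, lost its call without the shDdx10 day 0 replicate 1, where the change was 0.12 (limma adjusted p = 0.314), and without the shDdx10 day 1 replicate 1 (limma adjusted p = 0.245), and also with these groups alone (0.0991) and without the trend and robust settings (0.055). Ubtf, at -0.19, lost its call without the same day 0 library (limma adjusted p = 0.0653), without the shDdx10 day 1 replicate 1 (0.0534) and under quantile scaling (-0.12, limma adjusted p = 0.122).

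In shDdx10 cells, 2 genes were higher at day 3 than at day 0, Ncl and Polr1b, with 31.9% of all genes. Another 2 were lower, Ubtf and Polr1e, with 28.1%. Nolc1 and Lyar, not called here, had been picked on a day 3 difference between the arms that uses these libraries. The day 3 counts of the arms are therefore a description and are not compared. Ubtf lost its call under quantile scaling (-0.14, limma adjusted p = 0.0663), and Polr1e lost it without the shDdx10 day 0 replicate 1 (0.0837), the shDdx10 day 0 replicate 2 (0.0995) or the shDdx10 day 3 replicate 2 (0.209). Ubtf had its lowest group mean of the 10 groups at this time, with 2081 and 2131 reads in shDdx10 cells of day 3. At day 5, 2 genes were higher than at day 0 in shDdx10 cells, Ncl and Polr1b, with 34.3% of all genes, and 2 were lower, Polr1e and Rrn3, with 29.9%; leaving out whichever of the 4 libraries ended the call of Polr1b, at a limma adjusted p between 0.0539 and 0.135. From day 1 to day 7, 7 genes fell in shDdx10 cells and 2 rose, against 22.7% and 26.8% of all genes, and by name these were the 7 and the 2 of the shLuci arm. Of these, Polr1b, Rrn3, Polr1a and Polr1c each lost the call when some single shDdx10 library was left out: replicate 1 of day 1 for Polr1b (limma adjusted p = 0.123) and Polr1a (0.0753), replicate 2 of day 1 for Rrn3 (0.0505) and Polr1c (0.0572), replicate 1 of day 7 for Polr1b (0.0528), and replicate 2 of day 7 for Polr1b (0.0784) and Rrn3 (0.0557). Rrn3 also lost it under quantile scaling (0.0601). The fall of Ncl was -0.55 (SE 0.069, limma adjusted p = 7.48e-06), and under quantile scaling it was -0.12 and not called (limma adjusted p = 0.14). Against day 0, 2 genes were higher at day 7, Ncl at 0.62 and Polr1b at 0.33, with 36.2% of all genes, and 2 were lower, Polr1e at -0.84 and Rrn3 at -0.19, with 30.9%. Rrn3 lost that call under quantile scaling (-0.073, limma adjusted p = 0.394), and without the shDdx10 day 0 replicate 1 (0.164), the shDdx10 day 7 replicate 1 (0.0758) or the shDdx10 day 7 replicate 2 (0.106). Polr1b lost it without the shDdx10 day 0 replicate 1 (limma adjusted p = 0.0543) or the shDdx10 day 7 replicate 1 (0.0601). Under quantile scaling the change of Ncl at day 7 was 1.30.

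The comparison between the arms asks what the knockdown of Ddx10 did to the same genes on each day. At day 0, 1 of the 10 genes was called, with 3.31% of all genes called in either direction. Ncl had 10656 and 10045 normalized reads in shDdx10 cells against 8299 and 8574 in shLuci cells, a log2 fold change of 0.29 (SE 0.069, limma adjusted p = 0.0299). Both shDdx10 libraries lay above both shLuci libraries. The call was lost without the shDdx10 day 0 replicate 1 (limma adjusted p = 0.231), the shLuci day 0 replicate 1 (0.118) or the shLuci day 0 replicate 2 (0.0682), and under quantile scaling (0.0528), with these 4 libraries fitted alone (0.186) and without the trend and robust settings (0.0825). The summed fibroblast markers were lower in shDdx10 libraries at this time, as given above, and their part in the difference of Ncl was not tested. Tcof1 had 1327 and 1358 in shDdx10 cells against 1587 and 1486 in shLuci cells at day 0 and was not called.

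At day 1, limma called 0 of the 10 genes, with 0.146% of all genes called; 3 of the 10, Nolc1, Ncl and Lyar, had an unadjusted p under 0.05, with 13.1% of all genes. Both shDdx10 libraries lay below both shLuci libraries for 5 genes, Nolc1, Ubtf, Rrn3, Ncl and Lyar, with a background of 18.1% of all genes. Lyar had 948 and 932 in shDdx10 cells against 1364 and 1004 in shLuci cells (log2 fold change -0.32, limma adjusted p = 0.244). Ncl had 22781 and 23758 in shDdx10 cells against 29509 and 26752 in shLuci cells (-0.27, limma adjusted p = 0.103). Nolc1 had 2138 and 2037 in shDdx10 cells against 2612 and 2397 in shLuci cells (-0.26, limma adjusted p = 0.119). Without the shLuci day 1 replicate 2, in which each of these 3 genes was the lower of its pair, all 3 were called, with log2 fold changes of -0.54 for Lyar (limma adjusted p = 0.00712), -0.34 for Ncl (0.0219) and -0.32 for Nolc1 (0.0326). The whole table gained calls with them, 743 genes in place of 23, and 3.31% of all genes were then called lower. The lone shLuci library is then assumed to vary like the other groups.

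At day 3, the difference for which Nolc1 and Lyar had been picked, the values are a description. Both shDdx10 libraries lay below both shLuci libraries for 8 genes, all but Polr1b and Polr1e, where 24.7% of all genes did so. Nolc1 and Lyar are among the 8 through the way they were picked, so this count cannot be weighed against that share. Lyar had 639 and 638 in shDdx10 cells against 931 and 1001 in shLuci cells. Tcof1 had 1389.6 and 1356 in shDdx10 cells against 1778 and 1928 in shLuci cells. Nolc1 had 1555.5 and 1612 in shDdx10 cells against 2024 and 2070.1 in shLuci cells. The shDdx10 libraries of these 3 genes sat close together and below the shLuci libraries. Ncl had 16174 and 16970.3 in shDdx10 cells against 20119 and 21048 in shLuci cells, and Ubtf had 2081 and 2131 in shDdx10 cells against 2532 and 2439 in shLuci cells. Polr1c had 710.2 and 699.9 in shDdx10 cells against 890.5 and 896 in shLuci cells. The log2 fold changes were -0.60 for Lyar, -0.43 for Tcof1, -0.37 for Nolc1, -0.34 for Polr1c, -0.31 for Ncl and -0.24 for Ubtf. Polr1b, with 786.5 and 885 in shDdx10 cells against 813.5 and 917 in shLuci cells, and Polr1e, with 401 and 314 in shDdx10 cells against 321 and 263 in shLuci cells, had overlapping libraries. The fibroblast markers summed to 238629 to 248166 in shDdx10 libraries and to 191157 to 202652 in shLuci libraries at day 3, and 6 of 6 epithelial markers summed to 2657 to 2717 in shDdx10 libraries and to 4824 to 5038 in shLuci libraries. Among the epithelial markers, Krt18 went the other way, at a mean of 427.0 in shDdx10 cells and 318.9 in shLuci cells. Ocln was near equal (38.4 and 38.5). The part of the markers in these differences was not tested.

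By days 5 and 7 the nucleolar proteins of the arms overlapped or lay near each other. At day 5 limma called 0 of the 10 genes, with 8.73% of all genes called, and 2 of the 10, Ubtf and Polr1c, had an unadjusted p under 0.05, close to the 22.2% of all genes. Lyar had 564 and 559 in shDdx10 cells against 582 and 604 in shLuci cells, and Ncl had 12396 and 13470.4 in shDdx10 cells against 13468 and 12425 in shLuci cells. At day 7 limma again called 0 of the 10, with 6.17% of all genes called, and 2 of the 10, Polr1a and Polr1c, had an unadjusted p under 0.05, close to the 18.4% of all genes. Polr1a had 1722 and 1755 in shDdx10 cells against 1530.1 and 1502 in shLuci cells at day 7 (log2 fold change 0.20, limma adjusted p = 0.181). Tcof1 had 1333 and 1434 in shDdx10 cells against 1247 and 1211 in shLuci cells, and Nolc1 had 1598 and 1578 in shDdx10 cells against 1502 and 1448 in shLuci cells. At day 7 both shDdx10 libraries lay above both shLuci libraries for Nolc1, Tcof1 and Polr1a, 3 of 10 with a background of 28.6%, and below them for Ubtf and Polr1c, 2 of 10 with a background of 27.6%.

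The values of Ubtf and Polr1c lay lower in the knockdown at days 5 and 7 as well, but neither gene was called on these days. The counts of the 10 genes with an unadjusted p under 0.05 on these days were close to the shares of all genes, as given above. Ubtf had 2581 and 2584 normalized reads in shDdx10 cells against 2882 and 2867 in shLuci cells at day 5, and 2714 and 2698 in shDdx10 cells against 2746 and 2785 in shLuci cells at day 7. On each of the 5 days both shDdx10 libraries of Ubtf lay below both shLuci libraries, but none of days 0, 1, 5 and 7 was called (day 5 log2 fold change -0.15, limma adjusted p = 0.12, and 0.0414 with weights for libraries). The share of all genes that lay below on all 5 days was not counted, and day 3 is a description. On single days the share was 18.1% at day 1 and 27.6% at day 7. Polr1c, the subunit shared by polymerases I and III, had 823 and 933.5 normalized reads in shDdx10 cells against 1047 and 1113.5 in shLuci cells at day 5, and 938 and 918 in shDdx10 cells against 1129 and 1146 in shLuci cells at day 7. The libraries did not overlap on either day. At day 5 this held for 4 of the 10 genes, Rrn3 and Lyar among them, and the share of all genes is not given here. At day 7 it held for 2 of 10, beside 27.6% of all genes. The log2 fold changes were -0.30 at day 5 (limma adjusted p = 0.107) and -0.29 at day 7 (limma adjusted p = 0.145). With weights for libraries both days of Polr1c were called, at limma adjusted p = 0.0255 and 0.0184, and with the day 7 libraries fitted alone the day 7 difference was called at 0.0266. Over the mean of days 0, 1, 5 and 7, which leaves out day 3, Polr1c was the 1 gene of 10 called. That count is close to the 12.4% of all genes called in either direction, and 4.98% of all genes were called lower. The log2 fold change of Polr1c was -0.21 (SE 0.055, limma adjusted p = 0.0212), or 0.867-fold. The call was lost without the shDdx10 day 0 replicate 1 (-0.18, limma adjusted p = 0.0571), the shDdx10 day 1 replicate 2 (-0.19, 0.0555), the shDdx10 day 5 replicate 1 (-0.18, 0.0626) or the shLuci day 5 replicate 2 (-0.20, 0.0504). Ubtf was lower by 0.083 on the log2 scale over these days without passing the test (limma adjusted p = 0.0751), and it was called without the shLuci day 1 replicate 1 (-0.10, limma adjusted p = 0.017). The summed epithelial markers overlapped between the arms at day 0 and were lower in the knockdown at days 1, 5 and 7. At day 7 they were 10843 to 11565 in shDdx10 libraries and 18465 to 19779 in shLuci libraries. At day 1, Krt18 (mean 148.8 in shDdx10 cells and 126.4 in shLuci cells) and Ocln (5.9 and 1.6) went the other way. The summed pluripotent markers (8 of 8) were higher in the knockdown at days 5 and 7. At day 7 they were 5044 to 5419 in shDdx10 libraries and 3814 to 4104 in shLuci libraries. On that day Tdh (mean 3848.4 in shDdx10 cells and 2363.5 in shLuci cells) and Sall4 (417.7 and 353.5) were higher, and the other pluripotent markers were lower. The part of these epithelial and pluripotent markers in the difference of Polr1c was not tested.

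**Figure D3:**
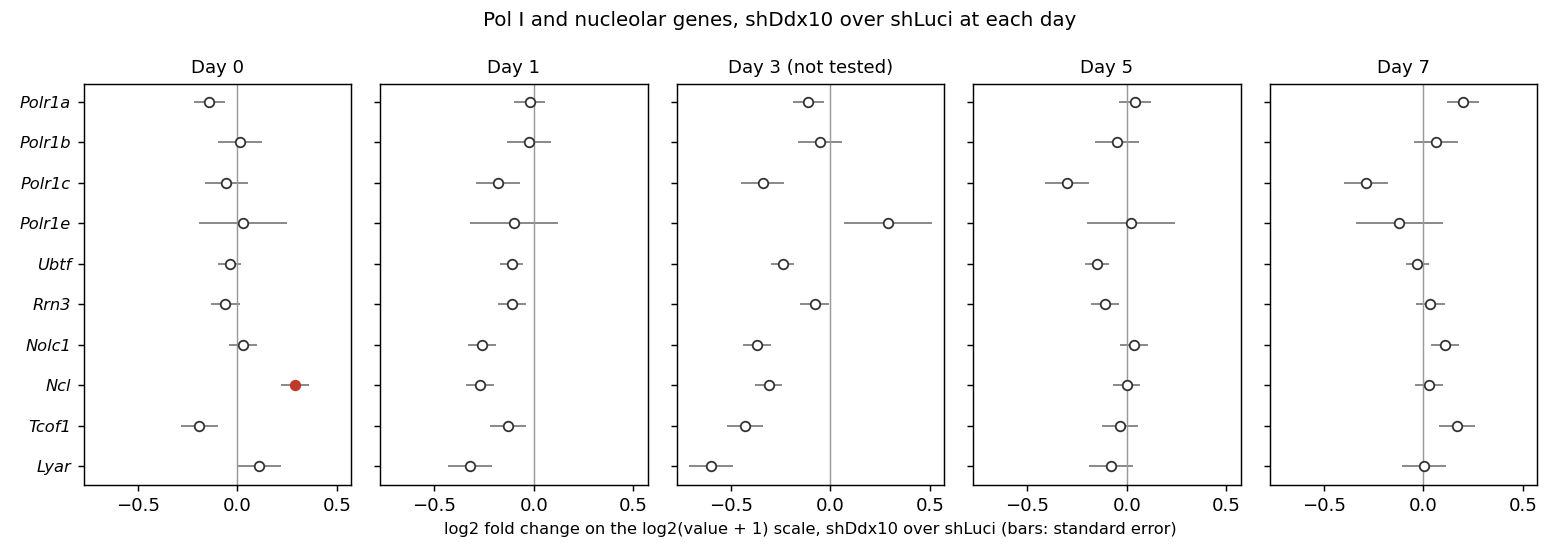
Log2 fold change of shDdx10 over shLuci cells (x axis, log2(value + 1) scale) for each of the 10 genes (y axis) at each day, from 2 libraries per arm and day; points are fitted values, bars are standard errors, the filled point was called by limma, and day 3 was not tested. Lyar reaches -0.60 at day 3, Ncl stands at 0.29 at day 0, and Polr1c lies near -0.30 at days 5 and 7.

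Whether the change over time differed between the arms was tested directly. From day 0 to day 1 the difference was called for 1 of the 10 genes, with 0.273% of all genes called. Ncl rose by 1.17 on the log2 scale in shDdx10 cells and by 1.74 in shLuci cells, a difference of -0.57 (SE 0.10, limma adjusted p = 0.0234). The arms differed by 0.29 on the log2 scale at day 0 and by -0.27 at day 1, so that both days enter the difference. The call was lost under quantile scaling (-0.49, limma adjusted p = 0.0561), with the compared libraries fitted alone (0.552), with weights for libraries (0.194), without the trend and robust settings (0.0814), and without the shDdx10 day 0 replicate 1 (-0.52, 0.0793) or the shDdx10 day 1 replicate 1 (-0.54, 0.0955). Lyar had a difference of -0.43 (limma adjusted p = 0.277), which was called without the shLuci day 1 replicate 2 (-0.65, limma adjusted p = 0.0298), and Nolc1 had -0.29 (limma adjusted p = 0.219). From day 0 to day 7 limma called 0 of the 10 genes, with 6.38% of all genes called, and 3 of the 10, Tcof1, Ncl and Polr1a, had an unadjusted p under 0.05, with 22.2% of all genes. Tcof1 had a difference of 0.36 (limma adjusted p = 0.107), Polr1a had 0.33 (0.0903) and Ncl had -0.27 (0.119).

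The other genes of the pathway were counted from lists of polymerase and nucleolar genes. From day 0 to day 1 in shLuci cells, the factors that start, end or package ribosomal DNA transcription and the other nucleolar proteins moved mostly upwards among their calls, while the remaining polymerase subunits did not. Of 18 initiation, termination and ribosomal DNA chromatin genes, 8 rose and 2 fell, with a median log2 fold change of 0.24, where 28.3% of all genes rose and 26.7% fell and their median was 0.0065. Taf1d, a subunit of the promoter selectivity factor SL1, had 1124 and 1120.3 reads at day 1 against 346.5 and 519 at day 0 (log2 fold change 1.40, limma adjusted p = 8.78e-07), and Top1, a DNA topoisomerase, had 3454 and 3468 at day 1 against 1643 and 1674 at day 0. Of 20 proteins of small nucleolar ribonucleoproteins and other nucleolar proteins, 9 rose and 1 fell, with a median of 0.23. Npm1, nucleophosmin, had 27319 and 22856 reads at day 1 against 11072 and 11491 at day 0 (log2 fold change 1.15, limma adjusted p = 2.84e-08), and Dkc1, the pseudouridine synthase dyskerin, had 1167 and 1835 at day 1 against 645.5 and 492 at day 0. Of 9 other polymerase I subunits, 1 rose, Twistnb (Polr1f), at a log2 fold change of 0.52, and 3 fell, with a median of -0.24. Polr2l, a small subunit shared by polymerases I, II and III, had 423 and 366 reads at day 1 against 831 and 916 at day 0 (log2 fold change -1.15, limma adjusted p = 6.6e-05). The subunits of polymerase II, 1 of 7 higher and 3 lower, and of polymerase III, 3 of 11 higher and 4 lower, also went both ways; Polr3g, a polymerase III subunit, had 572 and 601 reads at day 1 against 232 and 220.2 at day 0. With the shLuci libraries of these days fitted alone, the counts were 4 higher and 1 lower of the 18, 1 and 1 of the 9, and 3 and 1 of the 11. The shares of all genes given above belong to the fit of all libraries, so these last counts have no background beside them.

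From day 1 to day 7 in shLuci cells, 14 of the 20 nucleolar proteins fell and 1 rose, where 28.2% of all genes fell and 30.7% rose. Their median log2 fold change was -0.56, beside -0.52 for the 10 genes and 0.044 for all genes. Among the 14, Npm1, at -0.24, changed direction under quantile scaling, as given further below. Without the shLuci day 1 replicate 1 the changes were -0.11 for Npm1 and -0.1 for Nhp2, in place of -0.24 and -0.34. Without the shLuci day 1 replicate 2 they were -0.37 and -0.57. Nop56, a core protein of box C/D small nucleolar ribonucleoproteins, had 2912 and 2707 reads at day 7 against 4491 and 3903 at day 1, a log2 fold change of -0.58, and -0.38 under quantile scaling. Top1, in contrast, had 4217 and 4083 reads at day 7 against 3454 and 3468 at day 1. Between the arms, over the mean of days 0, 1, 5 and 7, limma called 1 of the 20 nucleolar proteins, 1 of the 18 initiation and chromatin genes, and 0 of the other polymerase I, II and III subunits, all of which are smaller shares than the 12.4% of all genes. Gltscr2 (Nop53), a nucleolar protein of ribosome assembly, had a log2 fold change of -0.26 (SE 0.054, limma adjusted p = 0.00574), with 1695 and 1809 reads in shDdx10 cells against 2126 and 2280 in shLuci cells at day 5. Ercc6, a chromatin remodeller, had 0.20 (limma adjusted p = 0.0234), and its call was lost without any one of 7 libraries, with limma adjusted p-values of 0.0562 to 0.065. At day 3 the 20 nucleolar proteins had a median log2 fold change between the arms of -0.23, against 0.015 for all genes, a description like the other day 3 values.

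**Figure D4:**
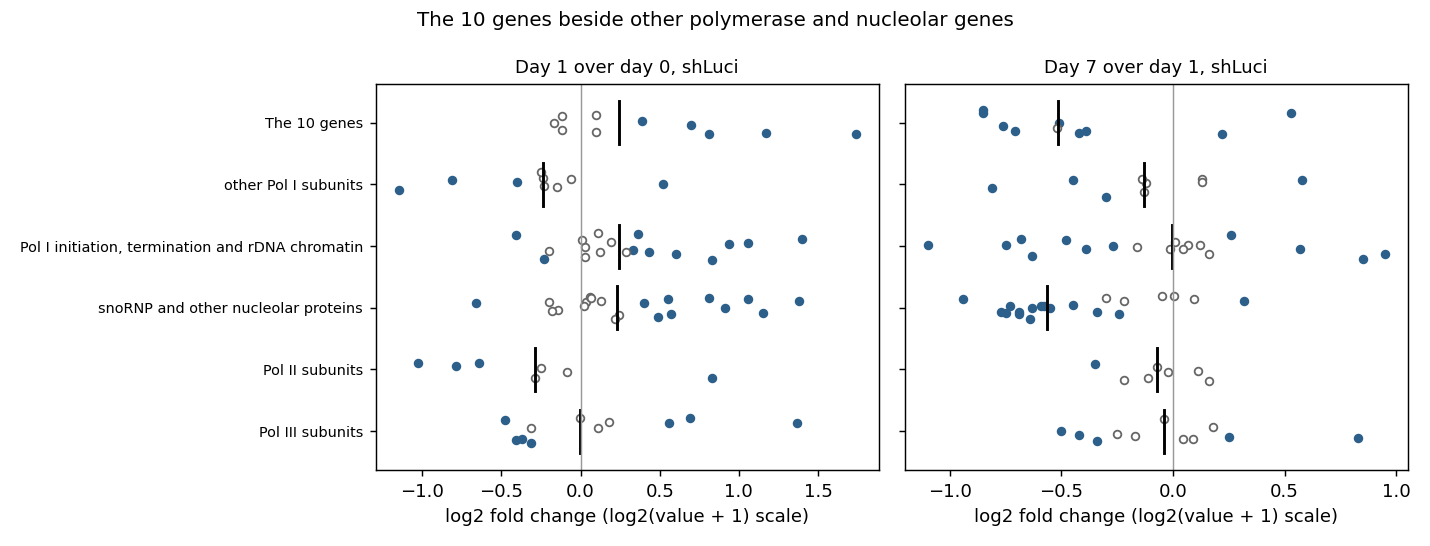
Log2 fold change in shLuci cells (x axis, log2(value + 1) scale), day 1 over day 0 on the left and day 7 over day 1 on the right, for the 10 genes and 5 lists of related genes (y axis); each point is 1 gene, filled where limma called it, the black bar is the median of the list, and vertical scatter is for display. The medians of the 10 genes are 0.25 and -0.52, and those of the 20 nucleolar proteins are 0.23 and -0.56.

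The 10 genes did not share 1 course. Over the 10 group means, which share libraries between genes, the course of each gene was set beside the mean course of all 10, of which each gene is itself a part. Nolc1 (Pearson's r = 0.96), Tcof1 (0.95) and Lyar (0.94) followed that mean closely. Rrn3 (0.79), Ncl (0.77), Polr1a (0.77) and Polr1b (0.68) followed it less closely, Polr1e (0.37) loosely, and Polr1c (-0.36) and Ubtf (-0.39) ran against it. Among pairs, Lyar and Nolc1 (0.97), Ncl and Polr1b (0.95), and Ubtf and Polr1c (0.93) were close, while Polr1c and Polr1a ran against each other (-0.75). Among genes outside the set with a mean of at least 100 normalized reads, the courses most like the mean over the 10 group means were those of Plk1 (0.983), Nop56 (0.981), Tacc3 (0.978), Birc5 (0.969), Anp32b (0.965) and Mak16 (0.965). These correlations describe 10 group means and carry no test. The day 3 groups, on whose difference Nolc1 and Lyar had been picked, are among them. The closeness of these genes to each other and to the mean course may follow in part from that choice.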

How the data were processed

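Libraries of polyadenylated RNA from 20 samples (2 arms, 5 days, 2 replicates each) were sequenced in paired ends, per the labels' protocols. The deposited values are signal, namely read counts normalized by the authors, for 15757 genes in a single table. The submitters' processing notes name DESeq2 1.22.0, RSEM 1.2.22, STAR 2.5.2a, Trim Galore 0.4.4 and the mm10 build without the role of each. Low values in a column gather at a step; within 20 steps, 43.1 to 63.4% of them were whole to a tolerance of 0.1, so whole reads were not recovered and limma was used on log values, which understates changes of genes with few reads. Of the gene identifiers, 15665 were found in GENCODE M21 (mm10) and 92 were not, and 24 damaged symbols were looked up again.

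Tests used log2(value + 1). A filter of at least 1 in at least 2 libraries removed 0 genes, and the lowest maximum of any gene was 7.61. All libraries entered 1 fit of 10 group means in limma 3.58.1 (R 4.3.3; empirical Bayes with trend and robust settings), and p-values were adjusted by the method of Benjamini and Hochberg over 15757 genes with a threshold of 0.05. The script was tested on simulated data. The median standard error was 0.156 for a single day and 0.22 for a difference between arms in a change. Tables and figures were made in Python 3.11.15 with pandas 2.3.3 and matplotlib 3.10.9. The genes and the lists were chosen with earlier results of these data known. Named genes are the 10, with list members given as examples from those past the threshold; lists use the table's symbols, and Gltscr2, Twistnb, Cd3eap, Znrd1, Nhp2l1 and Emr1 are older symbols. Alternatives were other scalings, pseudocounts and filters, the compared libraries alone, a replicate block, weights for libraries, no trend or robust settings, and leaving out each library.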

Additional observations from a re-analysis of the deposited data

Results flagged for a closer look

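The change of Ncl from day 0 to day 1 was called as different between the arms, a call that did not hold under several settings. Its log2 fold change was 1.17 in shDdx10 cells and 1.74 in shLuci cells, a difference of -0.57 (SE 0.10, limma adjusted p = 0.0234). The call was lost under quantile scaling (limma adjusted p = 0.0561), with the compared libraries fitted alone (0.552), with weights for libraries (0.194), without the trend and robust settings (0.0814), and without the shDdx10 day 0 replicate 1 (0.0793) or the shDdx10 day 1 replicate 1 (0.0955). Both shDdx10 libraries lay above both shLuci libraries at day 0 and below both at day 1. The shLuci libraries of day 1, at 29509 and 26752 normalized reads, belong to the group whose replicates differed most across genes.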

How the results depend on the processing

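Under each alternative run, no difference printed for the 10 genes and Ddx10 changed direction. Among the other genes computed, Npm1 at day 7 against day 1 in shLuci cells, -0.24 on the log2 scale, was 0.27 under quantile scaling; the cause was not tested. Quantile scaling moved the median log2 fold change of all genes by -0.17 to -0.12 between day 0 and days 3, 5 and 7 and between day 1 and day 7. A minimum mean of 10 moved no count of called genes among the 10. Rescaling by the median of ratios used a factor of 1.003 for every library, and the filter had removed 0 genes. Rescaling and dropping the filter therefore left the fit all but unchanged, and that they moved no count says nothing about scaling or filtering. With 2 libraries a group, 1 library often decides a call.

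Of the 10 genes, the 1 call at day 0 between the arms became 0 under quantile scaling, with the compared libraries alone and without the trend and robust settings. The 0 at day 5 became 2 with weights for libraries, and the 0 at day 7 became 1 with these weights and 1 with the compared libraries alone. The 1 call for the difference in change to day 1 became 0 under quantile scaling, with the compared libraries alone, with weights, and without the trend and robust settings. Over all genes, the 521 calls of day 0 became 304 under quantile scaling, 2 with the compared libraries alone and 296 without the trend and robust settings. The 23 calls of day 1 became 13 under quantile scaling, 40 and 14 with pseudocounts of 0.1 and 5, 0 with the compared libraries alone, 1 with weights and 8 without the trend and robust settings. With weights, the 751 calls of day 3 became 1390, the 1376 of day 5 became 2188 and the 972 of day 7 became 2127, and with the compared libraries alone the last became 1725. The 43 calls for the difference in change to day 1 became 26 under quantile scaling, 101 with a pseudocount of 0.1, 1 with the compared libraries alone, 9 with weights and 28 without the trend and robust settings.

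Leaving out 1 library at a time, the calls among the 10 genes between the arms ranged from 0 to 1 at day 0, 0 to 3 at day 1 and 0 to 2 over the mean of days 0, 1, 5 and 7. They ranged from 5 to 7 for day 7 against day 0 in shLuci cells, 2 to 4 for the same days in shDdx10 cells and 0 to 2 for the difference in change to day 1. Over all genes they ranged from 100 to 530.0 at day 0, 18 to 743 at day 1, 74 to 296 at day 3, 459 to 974 at day 5 and 286 to 553 at day 7 between the arms. For the difference in change they ranged from 21 to 662 to day 1 and from 283 to 929 to day 7.

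Deviations from the group means of same-numbered libraries of both arms correlated at -0.05 to 0.084 within a day. Over all 45 pairs of groups the range was -0.073 to 0.084, so no pairing by replicate number was seen. Whether same-numbered libraries were prepared together is not given in the sources used here, and these values cannot exclude it. A replicate block gave 12 calls over all genes at day 1 in place of 23 and 24 in place of 43 for the difference in change to day 1, and it changed no call of the 10 genes in the comparisons tested.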
